A study of Mus musculus with 2 samples.

Results

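Among mouse embryonic stem cells grown as a mixture of lines, 242 of 54279 cells carried RNA of transcription factors that mark trophoblast. They are called trophoblast-rule cells here. Each held at least 8 unique molecular identifiers (UMIs, each standing for 1 captured RNA molecule) of Hand1, Cdx2 and Gata3 together. Each also held fewer than 15 UMIs of the mesendoderm genes T, Mixl1, Lhx1, Eomes and Mesp1, fewer than 8 of the endoderm genes Gata4, Gata6, Sox7 and Sox17, and fewer than 50 of the fibroblast genes Col1a1, Col1a2, Bgn, Mgp and S100a4. All cells considered had at least 18000 UMIs, at least 1000 detected genes and at most 10% mitochondrial UMIs. The levels of these 17 rule genes chose the cells, so they are given below only as a description.

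The cells were embryonic stem cells of the inbred mouse strain C3H/HeSn-Paf/J, from 9 lines derived separately from embryos, 3 each with XX, XO and XY sex chromosomes. The lines were mixed and captured as 1 droplet library early in culture (time 1) and 1 library after 10 more passages (time 2). Both cultures were kept in serum with leukaemia inhibitory factor on gelatin and irradiated mouse embryonic fibroblasts, called feeders, with no other treatment in the labels. Cells were not assigned to lines here, so the sex chromosomes, line and clone of a given cell are unknown, and 1 library per time point leaves no test between time points. Between cell groups no test was run, since the cells were chosen by the same counts and the libraries are different time points, not replicates.

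Trophoblast is the outer lineage of the early mouse embryo and forms most of the fetal part of the placenta. Cdx2, Gata3, Elf5, Eomes and Tfap2c act in trophoblast stem cells, and Hand1 promotes the differentiation of giant cells, the large polyploid cells that border the maternal tissue. Embryonic stem cells derive from the inner cell mass and seldom enter this lineage. The rule genes also act elsewhere in the embryo: Hand1 in extraembryonic mesoderm, Cdx2 in the tail end of the body axis and Gata3 in surface ectoderm. Eomes is limited by the rule among the mesendoderm genes, so trophoblast cells rich in Eomes RNA could have been left out.

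At time 1, 136 of 25962 cells met the rule, or 0.524% (exact binomial 95% interval 0.440 to 0.619). At time 2, 106 of 28317 cells met it, or 0.374% (0.307 to 0.453). The difference of time 2 minus time 1 was -0.150 percentage points (Newcombe interval -0.265 to -0.0371). The limits on other lineages left out more cells at time 2, the mesendoderm limit 4 of 142 and 18 of 133. Without these limits the shares were 0.547% (0.461 to 0.644) and 0.470% (0.393 to 0.556), so the difference was smaller. All intervals here cover counting error only. Under 8 other settings of the rule and the filters the difference stayed negative and ranged from -0.482 to -0.0600 points. Between the libraries, 194 passing cells shared a barcode, and 1 of the 136 trophoblast-rule cells of time 1 was among them.

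The trophoblast-rule cells were deeper than the rest. Their median was 60876 UMIs at time 1 and 63021 at time 2, against 44963 and 52543 in all other passing cells, which are the comparison throughout. Their median mitochondrial share was 2.36% and 1.79%, against 2.33% and 2.12%. A fixed UMI minimum is met more easily by a deep cell. When at least 2 rule UMIs per 10000 were asked for in place of 8, 104 and 66 cells passed, 89 and 63 of them trophoblast-rule cells. Doublets (droplets with 2 cells) were scored with Scrublet. Its automatic threshold marked no cell in either library, so the 10% of cells with the highest scores were looked at instead. They held 6.62% of the trophoblast-rule cells at time 1 and 13.2% at time 2, against 10.2% and 10.4% of the other cells.

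Hand1 was the leading rule gene. Its level over the summed trophoblast-rule cells was 231.7 CPM (UMIs of the gene per 1000000 UMIs of all genes in the group) at time 1 and 250.9 CPM at time 2, against 1.21 and 0.631 CPM in other cells. Cdx2 stood at 26.0 and 49.6 CPM, against 0.507 and 0.703 CPM. Gata3 stood at 43.3 and 17.5 CPM, against 3.21 and 1.61 CPM. Hand1 had the most UMIs of the 3 genes in 97 of 136 cells at time 1 and in 81 of 106 at time 2. Cdx2 led in 12 and 21 cells and Gata3 in 25 and 3 cells, with 2 and 1 ties.

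All 3 genes were found together in a minority of the cells. At least 2 UMIs of each were present in 21 cells at time 1 (15.4%) and 11 cells at time 2 (10.4%). Hand1 was the only one at that level in 41 and 38 cells. Hand1 with Gata3 but not Cdx2 was found in 38 and 15 cells, and Hand1 with Cdx2 but not Gata3 in 8 and 20 cells. Cdx2 with Gata3 but not Hand1 was found in 4 and 3 cells. The rule thus gathers several marker combinations, and the Hand1-led cells make up most of them in both libraries.

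Genes with at least 20 CPM in either group were compared by the log2 ratio of CPM plus 1, trophoblast-rule cells over other cells. A gene is called where that ratio is at least 1 in size. At time 1, 140 of 5529 genes (2.53%) were called higher and 17 (0.307%) lower. At time 2, 281 of 5431 genes (5.17%) were called higher and 65 (1.2%) lower. Of 5171 genes compared in both libraries, 115 (2.22%) were called higher in both, 113 of them outside the rule, and 10 (0.193%) were called lower in both, 6 of them outside the rule. The number depends on how cells are chosen: with at least 2 rule UMIs per 10000, 257 and 512 genes were called higher. The number called lower moved as well under other settings, as given in the closing section. A gene that reached 20 CPM only in the trophoblast-rule cells had to be higher there. Among genes with at least 20 CPM in the other cells, a set added after seeing the data and without the rule genes, 59 of 5085 (1.16%) and 112 of 4911 (2.28%) were called higher.

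**Figure D1:**
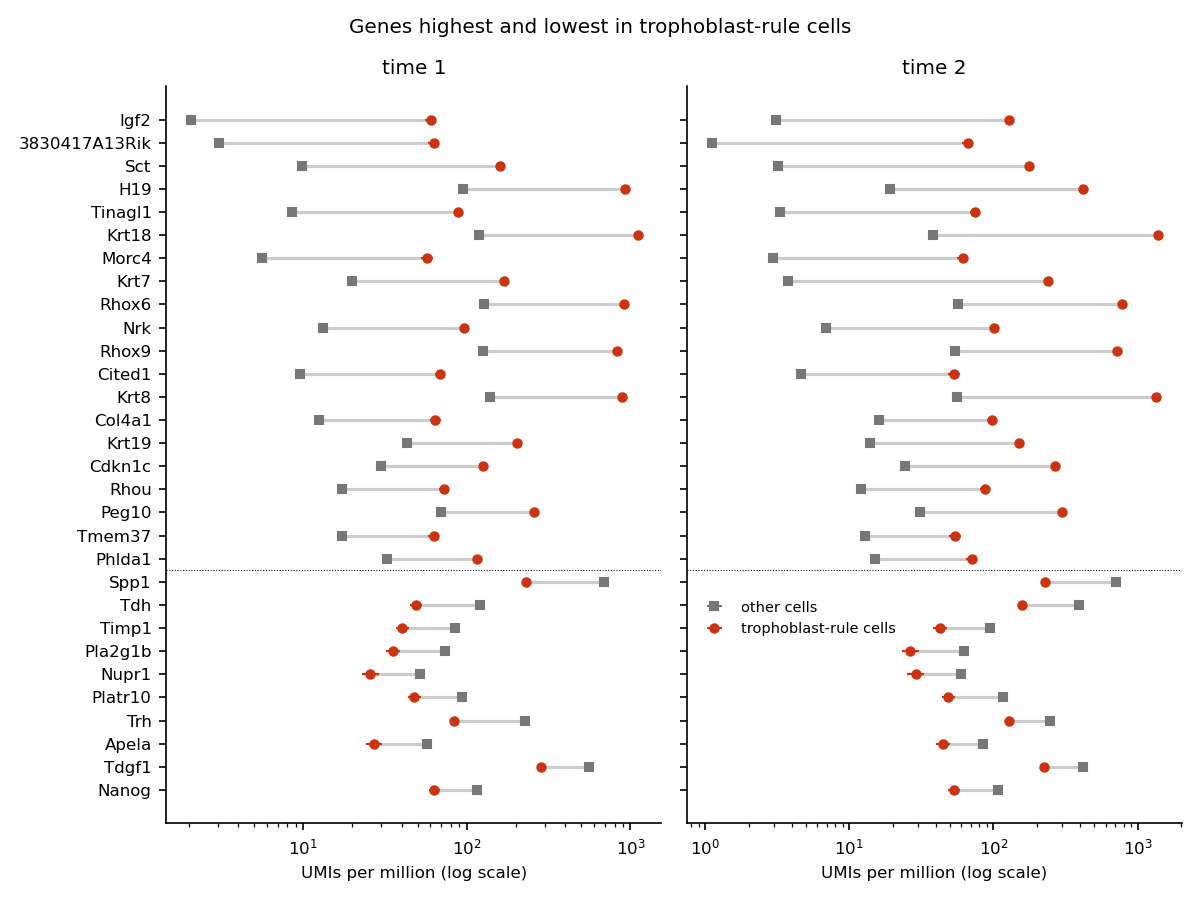
Level in CPM (log axis) of the 20 genes with the highest and, below the dotted line, the 10 with the lowest ratio of trophoblast-rule cells (red circles) to other cells (grey squares), at time 1 (left) and time 2 (right); bars are exact Poisson 95% intervals of the summed counts. The 20 were picked among genes with at least 50 CPM in trophoblast-rule cells, so many entered only through the cells where they are high. Krt18 stands at 1108 against 118.6 CPM at time 1 and at 1394 against 37.9 at time 2.

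Keratins of simple epithelia were among the genes with the highest ratios to other cells. Krt8 and Krt18 form the filament pair of simple epithelia, and Krt7 and Krt19 join them in trophoblast. Krt18 (GRCm38 chr15:102028180-102032027, plus strand) was at 1108 CPM against 118.6 CPM in other cells at time 1, a log2 ratio of 3.21 (3.18 to 3.25), and at 1394 CPM against 37.9 CPM at time 2, a log2 ratio of 5.16 (5.13 to 5.20). Krt8 was at 891 against 139.5 CPM and at 1338 against 55.9 CPM. Krt7 was at 168.9 against 19.8 CPM and at 240.2 against 3.73 CPM. Krt19 was at 201.8 against 43.3 CPM and at 151.0 against 13.9 CPM. In other cells all 4 keratins were lower at time 2, whereas in trophoblast-rule cells Krt7, Krt8 and Krt18 were higher at time 2 and Krt19 was lower.

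Of the 14 genes of a simple epithelium list, 12 passed the level minimum in each library, and 9 were called higher and none lower in each. Beside the 4 keratins these were the tight junction genes Cldn3 and Cldn4, the desmosome gene Dsp, the junction protein gene Perp and the galectin gene Lgals3. The list's median log2 ratio was 1.28 at time 1 and 2.37 at time 2, beside 0.0489 and 0.0168 over all genes compared. Among the 10 and 8 genes of the list with at least 20 CPM in other cells, 7 and 5 were called higher, with a median log2 ratio of 1.13 and 1.41. Over all genes with that level in other cells, 1.16% and 2.28% were called higher. In mesendoderm-rule cells, set against the same other cells, 3 and 5 of the 10 and 8 list genes were called higher. Their median log2 ratio there was 0.25 and 1.05. The share over all genes was not counted for mesendoderm-rule cells. The list is thus not particular to trophoblast-rule cells at either time. Cldn4 was at 183.8 against 85.8 CPM and at 131.3 against 26.3 CPM. Dsp was at 52.7 against 19.5 CPM and at 61.1 against 9.94 CPM. The general epithelial adhesion genes, which embryonic stem cells also use, differed less. Epcam was at 378.4 against 382.9 CPM and at 366.0 against 279.5 CPM, and Cdh1, the E-cadherin gene, was at 115.9 against 92.4 CPM and at 113.5 against 67.2 CPM.

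The upstream 250 bases of Krt18, Krt7 and Krt8 are shown as keratins higher in both libraries that differ in the motif letters they hold, because the set of genes higher in these cells was searched for letters bound by trophoblast factors. Sequences come from RefSeq (GRCm38.p6), run 5′ to 3′ on the gene's strand and end just before a RefSeq start, which for these genes lies inside the longer GENCODE gene span. Capitals mark GCCNNNGGC, the palindromic core of the AP-2 motif, the family of Tfap2c, in Krt18 and Krt7. Krt8 holds no such letters, and its capitals mark AGATAA, the core of the GATA motif.
Krt18, chr15:102027966-102028215, plus strand: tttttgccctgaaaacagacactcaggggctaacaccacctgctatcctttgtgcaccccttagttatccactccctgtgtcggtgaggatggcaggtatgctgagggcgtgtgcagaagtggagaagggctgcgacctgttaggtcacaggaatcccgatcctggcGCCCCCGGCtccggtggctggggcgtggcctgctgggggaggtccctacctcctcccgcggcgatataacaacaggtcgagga
Krt7, chr15:101412153-101412402, plus strand: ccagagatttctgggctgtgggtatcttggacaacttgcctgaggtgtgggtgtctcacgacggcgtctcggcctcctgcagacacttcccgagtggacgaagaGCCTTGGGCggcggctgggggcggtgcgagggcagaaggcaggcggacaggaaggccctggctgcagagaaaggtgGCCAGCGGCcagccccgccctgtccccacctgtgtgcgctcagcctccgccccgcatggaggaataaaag
Krt8, chr15:102004343-102004592, minus strand: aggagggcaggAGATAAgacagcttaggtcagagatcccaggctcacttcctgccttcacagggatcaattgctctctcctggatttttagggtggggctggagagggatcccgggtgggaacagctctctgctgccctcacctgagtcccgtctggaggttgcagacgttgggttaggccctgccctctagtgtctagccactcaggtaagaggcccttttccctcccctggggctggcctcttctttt

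Of the 20 genes with the highest ratios, 13 had an entry, with 19 such windows. These 20 were picked among genes with at least 50 CPM in trophoblast-rule cells, so many entered only through the cells where they are high. GCCNNNGGC was present in 9 of the 19 (47.4%). It was present in 22 of 113 windows (19.5%) of the 83 genes with an entry among those called higher in both libraries, and in 13.7% of all 32851 windows. GGAATG, the core of the TEAD motif, was present on either strand in 5 of the 19 windows (26.3%), in 18.6% of the 113 and in 12.6% of all. Both strands were also searched for 3 other cores. AGATAA, bound by Gata factors, was in 5.26% of the 19 windows and 9.99% of all, and in 6.20% of the 113 windows. TTTATNG, bound by Cdx factors, was in 15.8% and 9.81%, and in 7.08% of the 113 windows. CATCTG, bound by Hand factors, was in 5.26% and 14.4%, and in 7.08% of the 113 windows. A match is a description of letters: several windows belong to the same gene, and the motif letters were not fitted to the data.

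Regulators and markers of trophoblast stem cells formed the next group. Of 15 genes that the rule did not use, 10 passed the level minimum at time 1 and 8 at time 2. Of these, 6 and 5 were called higher and none lower, but 5 and 3 of those past the minimum reached it only in the trophoblast-rule cells. Among the 5 genes that reached it in other cells in each library, 2 were called higher, with a median log2 ratio of 0.80 and 0.61. Over all genes that reached it in other cells, 1.16% and 2.28% were called higher. Rhox6 and Rhox9, X-linked homeobox genes of placenta and germ cells, had the highest levels of the list. Rhox6 (chrX:37826910-37829857, plus strand) was at 916.8 against 127.5 CPM at time 1 and at 779.0 against 56.6 CPM at time 2. Rhox9 was at 827.2 against 124.9 CPM and at 717.4 against 54.5 CPM. Both are similar neighbours in 1 gene cluster, so reads could have been split between them, and they are best read as a pair.

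Of the less abundant genes of that list, Esx1, Plet1 and Wnt7b were called higher in both libraries. Esx1, an X-linked homeobox gene of the placental labyrinth, was at 30.1 against 3.15 CPM and at 40.2 against 1.63 CPM. Plet1, a surface protein gene of extraembryonic ectoderm, was at 60.5 against 8.31 CPM and at 49.8 against 7.73 CPM. Wnt7b, a ligand needed for the placenta to join its layers, was at 22.8 against 6.40 CPM and at 24.6 against 3.75 CPM. Elf5, which locks in trophoblast stem identity, was below the level minimum at 7.15 against 0.161 CPM and at 4.90 against 0.0883 CPM. Gata2, a partner of Gata3 in trophoblast, was at 7.25 against 1.75 CPM and at 16.5 against 2.30 CPM. Tfap2c, which embryonic stem cells also express, differed less, at 91.2 against 63.1 CPM and at 75.4 against 48.9 CPM.

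A few cells carried most of the scarcest of these RNAs. The 10 cells with the most Elf5 UMIs held 88% of the 75 Elf5 UMIs at time 1 and all 39 at time 2. Of the trophoblast-rule cells, 120 of 136 and 99 of 106 had none. For Plac1, a placenta-specific X-linked gene, the 10 highest cells held 88.3% of 257 UMIs and 72% of 200. For Krt18 the 10 highest cells held 44.7% and 43.3%, and for Rhox6 47.2% and 52.0%. Of genes named further on, the 10 highest cells held 64.3% and 45.8% for Nrk and 62.6% and 45.9% for Cdkn1c. For Sct the 10 highest cells held 49.4% and 59.5%, and for Morc4 38% and 66.4%. Levels of Elf5 and Plac1 over the summed cells thus speak for a small part of the cells, and those of Nrk, Cdkn1c, Sct and Morc4 lean on few cells.

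With every cell thinned to 15000 UMIs, Plac1 was detected in 17 of 136 trophoblast-rule cells (12.5%) at time 1 and 23 of 106 (21.7%) at time 2. The shares were 0.318% and 0.167% in other cells, and 0.505% and 0.687% in fibroblast-rule cells, which reached the fibroblast limit of the rule. Without thinning, Plac1 was found in 22.8% and 35.8% of trophoblast-rule cells. Igf2 was detected in 43.4% and 57.5% of thinned trophoblast-rule cells, against 2.63% and 2.46% of other cells and 7.58% and 18.0% of fibroblast-rule cells. Krt7 was detected in 59.6% and 65.1%, against 19.3% and 3.90% of other cells and 9.09% and 2.47% of fibroblast-rule cells. Igf2 was thus also detected more often in fibroblast-rule cells than in other cells. The part of free RNA in these shares was not tested. The median depth of the fibroblast-rule cells was 55046 UMIs at time 1 and 67703 at time 2.

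Hormone and protease genes of differentiated placental cells had almost no UMIs. The giant cell hormone genes Prl3b1, Prl7a2 and Prl4a1, the giant cell protease genes Ctsq and Ctsj, and the spongiotrophoblast genes Tpbpa, Tpbpb and Prl8a8 had 0 UMIs in the trophoblast-rule cells of both libraries. A count of 0 allows up to 0.286 CPM at time 1 and 0.377 CPM at time 2. Prl3d1, the earliest giant cell hormone gene, had 0.381 CPM at time 1 and none at time 2. Gcm1, which drives fusion in the labyrinth, was at 1.81 against 1.97 CPM and at 1.13 against 1.65 CPM. Of the spongiotrophoblast list, 3 and 2 genes passed the level minimum, with none and 1 called higher, and of the labyrinth list 2 and 2, with none called. Of the spongiotrophoblast genes, 2 and 1 reached the minimum only in the trophoblast-rule cells, among them Ascl2, the 1 called. No gene of either list that reached it in other cells was called. Over all genes that reached it in other cells, 1.16% and 2.28% were called higher. Of the 10 giant cell genes, 2 passed the level minimum in each library: Plac1, at 24.5 against 0.285 CPM and at 25.1 against 0.139 CPM, and the widely expressed Bhlhe40, at 31.4 against 16.0 CPM and at 33.4 against 7.87 CPM. Both reached the minimum only in the trophoblast-rule cells, so their passing it lends no support.

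Several imprinted genes with roles in the placenta were called higher. Of 10 such genes, 8 passed the level minimum in each library, 5 were called higher at time 1 and 6 at time 2, and among the 6 and 5 genes with at least 20 CPM in other cells 4 and 3 were called higher, with a median log2 ratio of 1.71 and 2.38. Over all genes with that level in other cells, 1.16% and 2.28% were called higher. In mesendoderm-rule cells 1 of the 6 and 3 of the 5 were called higher, with a median log2 ratio of -0.06 and 1.03. The share over all genes was not counted for those cells. Igf2, the fetal growth factor gene (chr7:142650766-142666816, minus strand), had the highest log2 ratio of the 20 named genes at time 1, with 60.1 against 2.08 CPM, and was at 127.7 against 3.08 CPM at time 2. The log2 ratios were 4.31 (4.16 to 4.46) and 4.98 (4.86 to 5.10). H19, the maternally expressed RNA next to Igf2 (chr7:142575529-142578143, minus strand), was at 930.8 against 95.0 CPM and at 421.3 against 19.03 CPM. H19 in the trophoblast-rule cells was lower at time 2, and it was lower in the other cells too.

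The further imprinted genes were not alike. Cdkn1c, a maternally expressed inhibitor of the cell cycle, was at 125.5 against 29.8 CPM at time 1 and at 266.5 against 24.3 CPM at time 2. Peg10, a paternally expressed gene of retroviral origin that the placenta needs, was at 258.2 against 69.2 CPM and at 301.4 against 30.8 CPM. Sfmbt2, paternally expressed in extraembryonic tissue, was at 112.3 against 38.2 CPM and at 118.0 against 21.9 CPM. Ascl2, which keeps spongiotrophoblast precursors, was at 24.1 against 12.6 CPM and at 33.5 against 4.28 CPM, and was called at time 2. Phlda2, a brake on placental growth, was at 93.6 against 98.2 CPM and at 156.3 against 96.8 CPM, and was called in neither library. Grb10, a growth inhibitor, had log2 ratios of -0.55 and 0.60. The data do not tell parental alleles apart, and reads of Igf2 and its antisense gene Igf2os cannot be told apart where the strand was not used.

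Igf2, H19, Cdkn1c and Ascl2 lie in 1 stretch of distal chromosome 7, and the neighbourhood was looked at after these values were seen. Within 1.5 Mb on either side of the H19 start (GRCm38 chromosome 7, 141078143 to 144078143), 5 of 28 genes compared in both libraries were called higher in both (17.9%), beside 2.22% of all genes. The window was drawn around genes already seen to be high, so these shares are a description, and among the 20 genes with at least 20 CPM in other cells of both libraries 1 was called higher in both. The 5 genes were Sct, Eps8l2, H19, Igf2 and Cdkn1c, and the genes of the window beyond the lists were picked after their values were seen. Sct encodes the hormone secretin, and it was at 160.7 against 9.82 CPM and at 176.3 against 3.22 CPM. Eps8l2, an actin regulator gene, was at 44.4 against 14.5 CPM and at 44.5 against 6.28 CPM. At time 2, 8 of 29 genes of the window (27.6%) were called higher, and 2 of the 20 with at least 20 CPM in other cells, beside 5.17% and 2.28% of all genes, with Tnnt3, Ascl2 and Cd151 added. Tnnt3, a troponin gene 79.3 kb from the H19 start, was at 17.6 against 3.09 CPM at time 1, below the level minimum, and at 24.3 against 0.954 CPM at time 2. Cd151, a tetraspanin gene, was at 61.6 against 33.6 CPM and at 59.2 against 23.8 CPM. Some genes between and beyond these had similar levels in both groups of cells. Mrpl23, 45.5 kb from the H19 start, was at 228.4 against 219.1 CPM and at 183.2 against 157.4 CPM, and Nap1l4, beyond Cdkn1c, was at 82.8 against 78.8 CPM and at 106.7 against 93.9 CPM.

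**Figure D2:**
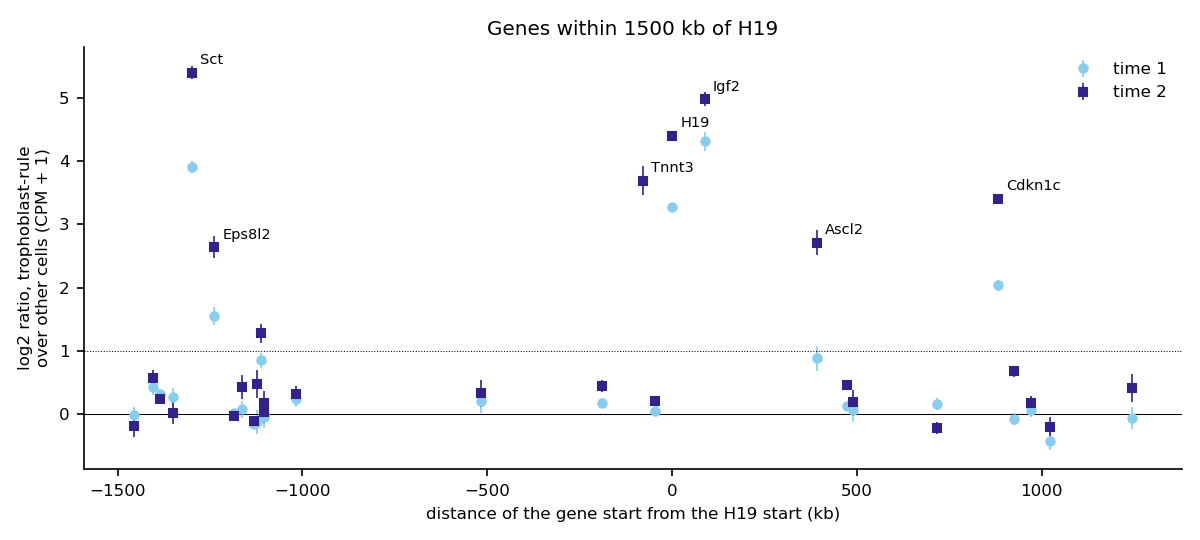
Log2 ratio of trophoblast-rule to other cells (CPM plus 1) for each gene compared within 1.5 Mb of the H19 start on chromosome 7, against the distance of its start in kb, at time 1 (light circles) and time 2 (dark squares); bars are intervals from counting error and the dotted line marks a ratio of 1. At time 2, Sct, Igf2 and H19 have the highest ratios, at 5.39, 4.98 and 4.40.

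X-linked genes were frequent among the genes called higher. Outside the rule, 18 of 174 X-linked genes (10.3%) were called higher in both libraries. On single autosomes that share ranged from 0% to 3.92%, the highest on chromosome 15, which carries Krt7, Krt8 and Krt18. Many of the X-linked genes reached the minimum only in the trophoblast-rule cells. Among genes with at least 20 CPM in other cells of both libraries, 7 of 151 X-linked genes (4.64%) and 32 of 4509 autosomal genes (0.71%) were called higher in both. At time 1 the shares were 10.1% on the X and at most 4.17% on an autosome, and at time 2 they were 14.04% and at most 7.80%. Among genes with at least 20 CPM in other cells they were 4.97% on the X and 1.02% on all autosomes at time 1, and 5.84% and 2.17% at time 2. The X-linked genes outside the lists were picked after their values were seen. The 18 genes include Rhox5, Rhox6, Rhox9, Plac1, Esx1, Nrk, Cited1, Morc4, Fthl17a, Mbnl3, Dusp9 and 3830417A13Rik. Nrk, a kinase gene that limits growth of the placenta, was at 96.5 against 13.2 CPM and at 101.0 against 6.85 CPM. Cited1, a transcriptional co-regulator gene of the placenta, was at 68.5 against 9.60 CPM and at 53.4 against 4.64 CPM. Fthl17a, a ferritin-like gene, was at 74.1 against 3.96 CPM and at 40.7 against 0.728 CPM. Dusp9, a phosphatase gene that restrains ERK signalling, was at 231.0 against 105.0 CPM and at 197.2 against 41.8 CPM.

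**Figure D3:**
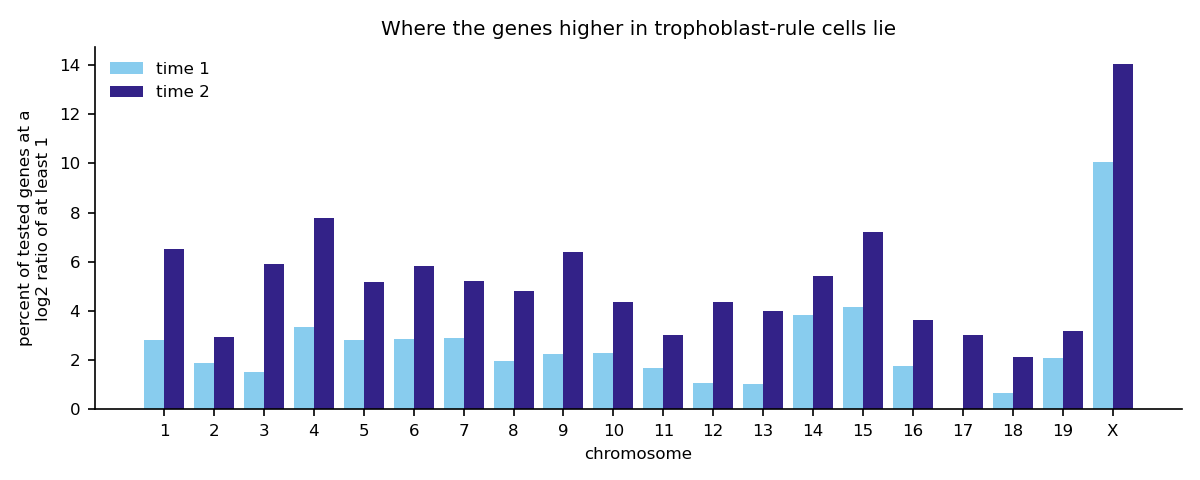
Percent of the genes compared on each chromosome that had a log2 ratio of at least 1, trophoblast-rule cells over other cells, without the rule genes, at time 1 (light bars) and time 2 (dark bars). The X has the tallest bar at both times, at 10.1% and 14.04%, which include genes that reached the minimum only in the trophoblast-rule cells.

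The X as a whole differed less than these genes did. The median cell had 4.27 X-linked UMIs per 100 autosomal UMIs among trophoblast-rule cells at time 1, against 3.71 in other cells, and 3.298 against 2.72 at time 2. Without the genes called higher in either library the medians were 3.72 against 3.602 and 2.96 against 2.65. Cells of different sex chromosome makeup were pooled, so a different mix of lines among the trophoblast-rule cells and a different level per cell cannot be told apart. At least 2 UMIs of 4 broadly expressed genes of the Y (Uty, Kdm5d, Ddx3y, Eif2s3y) were found in 3 of 136 thinned cells at time 1 (2.21%, interval 0.457 to 6.31) and 0 of 106 at time 2 (interval 0 to 3.42), where a floor of 3 counts allows up to 2.83%. The shares in other cells were 3.50% and 2.39%. Without thinning the shares were 13.2% and 8.49% against 11.5% and 8.98%. Chromosome 1 held 5.00% of autosomal UMIs at time 1, against 5.24% in other cells, and 6.26% against 7.20% at time 2. The log2 ratio at time 2 was -0.20, also without the called genes, and -0.25 in Hand1-led cells, and its part in the results was not tested.

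Further named genes included autosomal ones outside these groups. Tinagl1, a matrix protein gene, was at 89.0 against 8.59 CPM and at 74.9 against 3.29 CPM. Col4a1, a basement membrane collagen gene, was at 64.4 against 12.5 CPM and at 97.3 against 16.0 CPM. Id2, a target of BMP signals and an inhibitor of differentiation factors, was at 218.6 against 86.0 CPM and at 151.4 against 52.3 CPM. Rhou, a small GTPase gene, was at 72.5 against 17.3 CPM and at 87.6 against 12.1 CPM. Tmem37, Phlda1 and the X-linked Morc4 had log2 ratios between 1.80 and 3.98 over both libraries.

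The RNA of pluripotency genes was present in the trophoblast-rule cells. Pou5f1 RNA was also counted in fibroblast-rule cells, as given further on. The part of free RNA or doublets in these levels was not tested. All 12 genes of a core pluripotency list passed the level minimum in both libraries, none was called at time 1, and 2 were called lower at time 2. Over all genes with at least 20 CPM in other cells, 0.236% and 1.24% were called lower. The list's median log2 ratio was -0.34 at time 1 and -0.83 at time 2. Pou5f1, the central pluripotency factor gene, was at 473.3 against 677.0 CPM and at 435.8 against 758.0 CPM. Nanog was at 63.1 against 115.4 CPM and at 53.025 against 107.4 CPM, and Sox2 at 170.5 against 217.2 CPM and at 160.3 against 266.5 CPM. Fgf4, the growth factor gene that Pou5f1 and Sox2 control and on which trophoblast stem cells depend, was at 22.6 against 33.4 CPM and at 19.4 against 49.8 CPM. The 2 genes called lower at time 2 were Nanog and Fgf4.

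The 10 genes with the lowest ratios at a level of at least 50 CPM in other cells include further genes that embryonic stem cells express. Spp1, the osteopontin gene, was at 230.9 against 688.4 CPM and at 229.8 against 710.6 CPM. Tdh, a threonine-degrading enzyme gene on which mouse embryonic stem cells depend, was at 49.1 against 120.8 CPM and at 157.6 against 390.7 CPM. Trh, a hormone precursor gene, was at 84.0 against 225.7 CPM and at 128.2 against 247.0 CPM. Tdgf1, a co-receptor gene for Nodal, was at 285.3 against 557.4 CPM and at 224.4 against 419.9 CPM. Timp1, Pla2g1b, Nupr1, Platr10 and Apela had log2 ratios between -1.24 and -0.90. Tet1, a DNA demethylase gene, was at 84.0 against 111.7 CPM at time 1 and at 73.0 against 175.9 CPM at time 2.

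Lists of markers of other cell types had between none and 2 genes called higher. Genes of the fibroblast list that the rule did not use summed to 5.63 and 5.91 CPM, against 30.9 and 28.8 CPM in other cells, a direction that the fibroblast limit of the rule fixes, and 7 of its 8 genes had at least 1 UMI in each library. Of 20 genes of extraembryonic mesoderm, where Hand1 is also active, 3 passed the level minimum at time 1 and 4 at time 2, and 2 were called higher in each: Ahnak and Bmp4 at time 1, and Ahnak and Pmp22 at time 2. Of those past the minimum, 1 in each library reached it only in the trophoblast-rule cells. Among the 2 and 3 genes with at least 20 CPM in other cells, 1 and 1 were called higher. Over all genes with that level in other cells, 1.16% and 2.28% were called higher. The list summed to 342.7 and 484.4 CPM, against 220.3 and 340.3 CPM. Of its genes, Foxf1 was at 0.381 against 0.0995 CPM and at 0.251 against 0.0906 CPM, Kdr at 1.62 against 0.666 CPM and at 1.88 against 1.12 CPM, and Pdgfra at 0.858 against 0.635 CPM and at 0.251 against 0.707 CPM. In Cdx2-led cells, described further on, 2 of 2 and 2 of 3 genes of the list with at least 20 CPM in other cells were called higher. Over all genes past the minimum in either group, 6.04% and 5.84% were called higher in them. That base is wider, since it includes genes that reached the minimum only in the Cdx2-led cells. The 10 genes of amnion and surface ectoderm had no member above the level minimum and summed to 28.3 and 19.4 CPM, against 23.3 and 15.7 CPM. Of 10 further endoderm genes, 2 passed the minimum, Sparc and Lamb1, and none was called. Neural and germ cell lists had no gene called in either library, with 2 and 3 genes past the minimum. No gene of the list of 2-cell-like state passed it.

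Cells with many keratin UMIs tended to have few Pou5f1 UMIs. In thinned cells the summed UMIs of Krt7, Krt8, Krt18 and Krt19 had a median of 17.5 at time 1 (from 0 to 275) and 33.5 at time 2, against medians of 2 and 0 in other cells. They lay above the 99th percentile of other cells in 46 trophoblast-rule cells at time 1 (33.8%) and 54 at time 2 (50.9%). Pou5f1 had a median of 5 UMIs in trophoblast-rule cells of both libraries, against 10 and 11, and was below the 5th percentile of other cells in 30.1% and 39.6%. Both conditions held in 25 of 136 cells (18.4%) and 31 of 106 cells (29.2%), against 0.445% and 0.369% of other cells. Neither held in 74 cells (54.4%) and 41 cells (38.7%). Across the 97 and 81 Hand1-led cells, Spearman's rho between the keratin sum and Pou5f1 was -0.58 and -0.49. Between the keratin sum and Rhox6 plus Rhox9 it was 0.60 and 0.24, and with H19 0.25 and -0.03. These cells share a library and were thinned to 1 depth, and the rho values are a description.

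**Figure D4:**
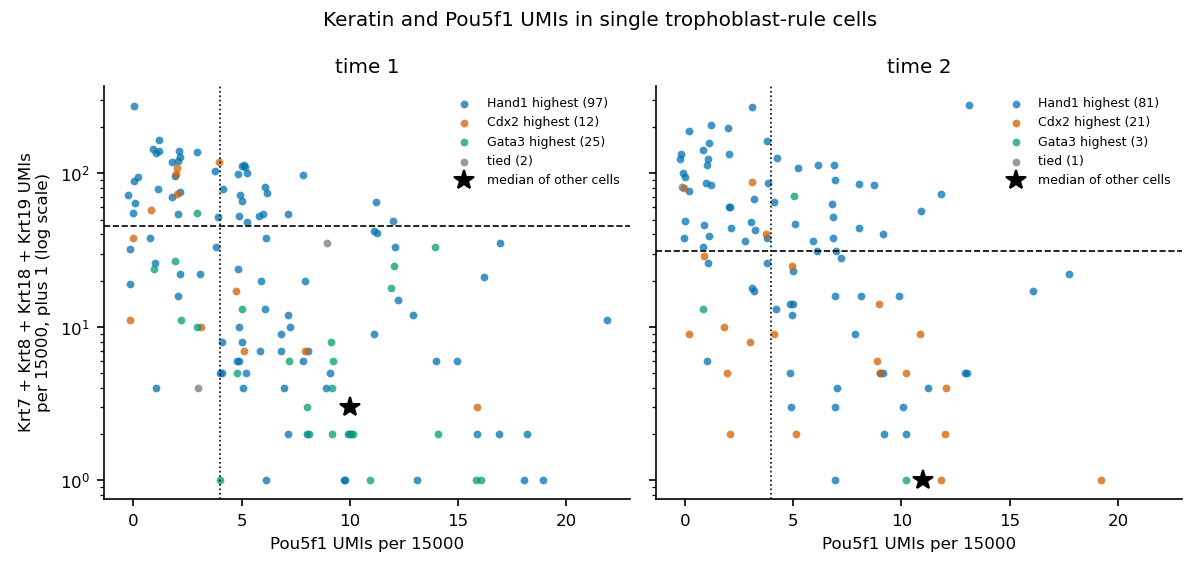
Each point is a trophoblast-rule cell thinned to 15000 UMIs: Pou5f1 UMIs (x axis, points spread sideways to separate them) against the summed UMIs of Krt7, Krt8, Krt18 and Krt19 plus 1 (log axis), coloured by the rule gene with most UMIs. The dashed line is the 99th percentile and the dotted line the 5th percentile of other cells, the star their median, and 25 cells at time 1 and 31 at time 2 lie both above and to the left of the lines.

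The cells led by each rule gene had different profiles, and in levels summed over cells the trophoblast label held best for the Hand1-led ones. It did not hold for all of them. Keratin UMIs above and Pou5f1 UMIs below the percentiles given above were found together in 20 of 97 (20.6%) and 28 of 81 Hand1-led cells (34.6%). Neither held in 49 (50.5%) and 28 (34.6%). The sums also lean on few cells, as given above. In the 97 and 81 Hand1-led cells, Rhox6 was at 1272 and 932 CPM, Plac1 at 36.6 and 29.6 CPM, Igf2 at 83.7 and 151.9 CPM and Krt18 at 1356 and 1616 CPM. Against other cells, 202 genes (3.63%) were called higher and 28 (0.503%) lower at time 1, and 322 (5.91%) and 68 (1.25%) at time 2. The trophoblast stem list had 6 of 10 genes called higher at time 1 and 6 of 9 at time 2, and 2 of the 5 that reached the minimum in other cells in each library. Sct had log2 ratios of 4.38 and 5.64.

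The Cdx2-led cells, 12 at time 1 and 21 at time 2, had higher levels of some genes of the tail end of the body axis and of mesoderm. T, a gene of that region, is limited by the rule and lends no support, with log2 ratios to other cells of 1.84 and 2.44. Fgf8, a growth factor gene of that region, was at 245.9 and 100.4 CPM, against 65.1 and 19.96 CPM in other cells. Sp5, a Wnt target gene, was at 94.3 and 40.7 CPM, against 12.2 and 6.20 CPM. Of 12 caudal genes, 3 passed the level minimum in each library, and Fgf8, Sp5 and Wnt3 were called higher, but 2 of them at time 1 and all 3 at time 2 reached the minimum only in the Cdx2-led cells, so the count lends no support. The caudal list summed to 389.7 and 231.3 CPM in Cdx2-led cells, against 577.5 and 380.8 CPM in mesendoderm-rule cells and 86.7 and 36.9 CPM in other cells. The extraembryonic mesoderm list summed to 789.5 and 873.7 CPM, against 220.3 and 340.3 CPM in other cells. The median log2 ratio over its 20 genes was -0.05 at time 1 and 0.85 at time 2. The sum at time 1 thus speaks for some of its genes and not for the list as a whole. Of all genes, 348 of 5761 (6.04%) were called higher and 172 (2.99%) lower in these cells at time 1, and 324 of 5548 (5.84%) and 134 (2.42%) at time 2. Single cells weigh much here: at time 1, 1 cell held 39.2% of the 102 Sp5 UMIs of all trophoblast-rule cells, and 10 cells held 95.1%. Their trophoblast stem list had 2 of 6 genes called higher and 2 lower at time 1 and none of 5 called at time 2, with medians of -0.20 and -0.12. At time 1, 1 of the 6 reached the minimum only in the Cdx2-led cells. Among the 5 that reached it in other cells, 1 was called higher and 2 lower, with a median of -0.71. Rhox6 was at 158.3 and 33.5 CPM and Plac1 at 0 and 0.727 CPM. Keratins summed over these cells were high too, with Krt18 at 1688 and 468.5 CPM. In single thinned cells the sum of the 4 keratins had a median of 26.5 and 7 UMIs, against 2 and 0 in other cells. It lay above the 99th percentile of other cells in 5 of 12 (41.7%) and 3 of 21 cells (14.3%). The rule genes chose these cells and lend no support to the trophoblast label. Beside them the label rests on summed keratins, high in few single cells at time 2, and on imprinted genes such as Cdkn1c, at 161.7 and 192.1 CPM. Genes of the epithelial and imprinted lists were also called higher in mesendoderm-rule cells, so neither list is particular to trophoblast-rule cells.

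The Gata3-led cells were 25 at time 1 and 3 at time 2, too few at time 2 to describe. At time 1 they had a median of 97129 UMIs, more than the 56165 of Hand1-led cells, and 3 of the 25 had at least 2 rule UMIs per 10000, against 77 of 97 Hand1-led cells. Their core pluripotency list had a median log2 ratio of 0.18, with Dppa5a at 7215 CPM, against 5632 CPM in other cells. Of their trophoblast stem genes, 1 of 7 past the level minimum was called higher, and none of the 5 that reached it in other cells, beside 84 of 5505 genes in all (1.53%), with 40 (0.727%) called lower, and Igf2 was at 5.56 CPM and Plac1 at 0.794 CPM. Krt18 was at 244.6 CPM and H19 at 570.6 CPM. They carried more X-linked RNA, with 5.89 UMIs per 100 autosomal UMIs, and 5.63 without the called genes, against 3.71 and 3.602 in other cells. None of the 25 had 2 Y-linked UMIs, thinned or not. In single thinned cells the keratin sum was above the 99th percentile of other cells in 1 of the 25. H19 was above its 99th percentile in 7 of them and absent in 10. Neither high keratin nor low Pou5f1, by the percentiles given above, was found in 20 of the 25 (80%). For the Gata3-led cells the trophoblast label thus rests mainly on Gata3 itself, and on H19 and some epithelial genes in levels summed over cells. Gata3 chose these cells and lends no support. Their depth, X-linked share and profile go together, and the part of each in the others was not tested.

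**Figure D5:**
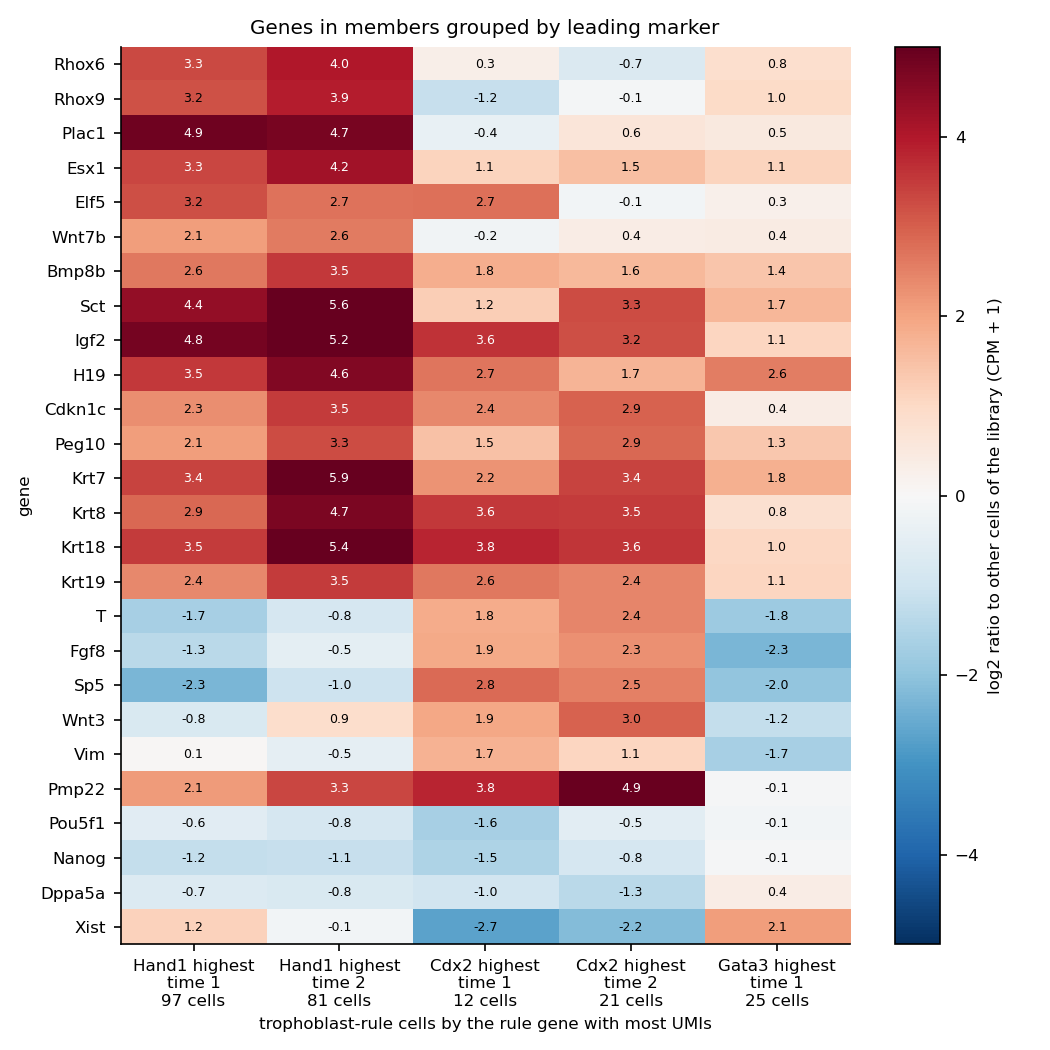
Log2 ratio (CPM plus 1) to other cells of the same library for 26 genes, in trophoblast-rule cells grouped by the rule gene with most UMIs; red is higher and blue lower, numbers are the ratios, and colours saturate at 5. Rhox6 and Plac1 are high in the Hand1 columns, Fgf8 and Sp5 in the Cdx2 columns (T there is a rule gene), and the Gata3 column has H19 at 2.57, Krt7 at 1.78 and Sct at 1.67, with Pou5f1 at -0.12 and Fgf8 at -2.27.

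Xist, the RNA that coats the inactive X, differed between the libraries. It was at 104.7 against 40.8 CPM at time 1 and at 5.03 against 6.81 CPM at time 2. At time 1, 1 cell held 27.4% of the 1098 Xist UMIs of the trophoblast-rule cells, 10 cells held 63.8%, and 78 of the 136 had none. Without those 10 cells the level was 43.05 CPM. The highest cells were left out on this side only, so that value cannot be set against the level of other cells. At least 2 Xist UMIs were found in 22.1% of thinned trophoblast-rule cells at time 1 (interval 15.4 to 29.97), against 11% of other cells, and in 1.89% against 1.66% at time 2. In Gata3-led cells the share was 32.0%. Xist and Tsix overlap on opposite strands, and the strand setting of the counting is not given in the sources used here.

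The threshold at 8 rule UMIs runs through a continuous range. At time 1, 70 cells within the other limits had 6 or 7 rule UMIs, 38 had 8 or 9 and 49 had at least 20. Krt18 was at 221.7, 762 and 1560 CPM in these cells, Rhox6 at 489.8, 468.6 and 1758 CPM, and Pou5f1 at 602.2, 575.6 and 360.1 CPM. At time 2 the numbers were 27, 23 and 40 cells, with Krt18 at 901.5, 563.3 and 2079 CPM, Rhox6 at 269.4, 310.3 and 1362 CPM and Pou5f1 at 560.3, 559.3 and 360.2 CPM. Rhox6 and Pou5f1 in the cells just inside the threshold were close to those just outside it, whereas Krt18 was higher inside at time 1 and lower at time 2.

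The trophoblast-rule cells were set beside the other differentiated cells of the cultures, which reached the mesendoderm, endoderm or fibroblast limit and were not trophoblast-rule cells. Krt18 was at 301.2 and 289.8 CPM in mesendoderm-rule cells (400 and 612 cells), at 376.7 and 169.9 CPM in endoderm-rule cells (131 and 265 cells) and at 100.9 and 30.2 CPM in fibroblast-rule cells (396 and 728 cells). Krt18 was thus also above the level of all other cells in the mesendoderm-rule and endoderm-rule cells. Rhox6 was at 37.9 and 24.3 CPM, 25.4 and 18.9 CPM, and 43.8 and 26.7 CPM in the 3 groups, below the 127.5 and 56.6 CPM of all other cells, and 916.8 and 779.0 CPM in trophoblast-rule cells. Igf2 was at 3.68 and 4.03 CPM, 17.5 and 37.1 CPM, and 10.2 and 27.2 CPM. Pou5f1 was at 497.1 and 591.7 CPM, 286.4 and 440.5 CPM, and 256.1 and 371.6 CPM, so the 473.3 and 435.8 CPM of the trophoblast-rule cells were within the range of the other groups at both times.

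Over the 10 passages between the libraries the trophoblast-rule cells themselves differed in few genes. Of 5556 genes with at least 20 CPM in either, 25 (0.45%) were called higher and 56 (1.01%) lower at time 2. In the other cells 49 of 5327 (0.92%) were called higher and 116 (2.18%) lower. Most of the largest differences had the same direction in both. The log2 ratio of time 2 to time 1 for Xist was -4.13 in trophoblast-rule cells and -2.42 in other cells. It was -2.57 and -2.13 for Rhox1, -2.44 and -2.37 for Baiap2l1, and -1.74 and -1.98 for Bnip3, a hypoxia-induced mitochondrial gene. The linker histone genes Hist1h1b and Hist1h1e had ratios of 1.75 and 1.97, and of 1.08 and 1.09. Tdh had ratios of 1.66 and 1.69, and Tubb3, a neuronal tubulin gene, of 1.12 and 0.74. Tfpi, a clotting inhibitor gene, had ratios of -1.77 and -0.73, from 284.6 to 82.7 CPM in trophoblast-rule cells. Cdkn1c was the exception among the 10 genes named: its ratio was 1.08 in trophoblast-rule cells and -0.28 in other cells. Among Hand1-led cells alone, 18 of 5558 genes (0.324%) were called higher and 46 (0.828%) lower at time 2. None of these differences between 1 library and 1 library could be tested.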

How the data were processed

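RNA of single cells was captured with 10x Chromium v3.1 chemistry in 1 library per time point. The deposited raw counts are UMIs per gene and barcode, made by the authors with Cell Ranger 6.1.2 after bcl2fastq 2.20.0.422 on mm10, per the submitters' processing notes. The strand setting is not given in the sources used here. The libraries held 145288 and 52242 barcodes, of which 25962 and 28317 passed the filters given above. Lines were marked with lipid tags, which were not used here.

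UMIs were summed over trophoblast-rule cells and over all other passing cells of a library and scaled to CPM. Ratios are log2 of CPM plus 1, over genes with at least 20 CPM in either group. Intervals are exact Poisson for levels, Clopper-Pearson at 95% for shares and Newcombe for their difference. All intervals describe counting error alone, and no test was run: each time point is 1 library, and the cell groups were chosen by the counts compared. Detection was compared after thinning each cell to 15000 UMIs, which left out no passing cell. Doublets were scored with Scrublet (scanpy 1.11.5) and kept. Of 32285 genes, 32158 matched the GENCODE M21 annotation, which gave coordinates on GRCm38.

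Genes were named by rule. All genes of 28 fixed lists and the 5 highest and 5 lowest ratios of time 2 to time 1 were taken. The 20 highest and 10 lowest ratios, by the smaller size of both libraries and outside the rule genes, were added. A minimum of 50 CPM in both libraries applied to trophoblast-rule cells for the 20 and to other cells for the 10. Many of the 20, such as Igf2 and Sct, were below 20 CPM in other cells and entered only through the cells where they were high. The cells and lists were chosen with earlier results of these data known. Python 3.11.15, numpy 2.4.6, scipy 1.17.1, pandas 2.3.3, matplotlib 3.10.9 and edgeR 4.0.16 (R 4.3.3, for scaling factors) were used. On simulated counts with 200 genes altered, the ratio recovered 100% of them in each library, over 5142 and 4955 genes. This lends no support to single calls here, where cells were chosen by the counts compared.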

Additional observations from a re-analysis of the deposited data

How the results depend on the processing

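The share of trophoblast-rule cells at time 1 and time 2 was 1.04% and 0.554% with at least 5 rule UMIs (difference -0.482 points), 0.335% and 0.254% with at least 12, and 0.401% and 0.233% with 2 per 10000 UMIs. It was 0.426% at time 1 with a minimum of 10000 UMIs. With no limits on other lineages it was 0.547% at time 1 and 0.470% at time 2. Counts of genes moved with the rule: with at least 5 rule UMIs 66 genes were higher at time 1 and 40 lower at time 2, with at least 12 there were 33 lower at time 1, and with 2 per 10000 UMIs 257 were higher and 69 lower at time 1, and 512 and 186 at time 2. Without a minimum level the counts were 320 and 120 at time 1, 701 and 244 at time 2, and 115 and 328 for time 2 against time 1. With a minimum of 50 CPM they were 76 and 7, 136 and 25, and 8 and 21. With a pseudocount of 5 CPM, 41 genes were lower at time 2, and 15 were higher and 36 lower for time 2 against time 1. With the mean of per-cell CPM, 28 and 130 genes were lower. Without the cells with the highest Scrublet scores 136 were lower at time 2, without the other rule classes in the comparison 8 were lower at time 1, and with only Hand1-led cells, added after seeing the data, 28 were lower at time 1. The cause of these shifts was not tested. The median of the primed epiblast list at time 2 turned from -0.43 to 0.47 without the other rule classes. All 272 values of named genes under the alternatives kept their sign. All 160 values of the 20 highest genes stayed at a log2 ratio of at least 1. The highest and lowest genes were picked by their ratios in these same libraries, and the alternatives reuse counts of the same libraries. Keeping the sign or the ratio of 1 was thus largely set by that choice and lends no support to single genes. TMM scaling shifted all ratios by -0.091 and -0.098 in the 2 libraries and by 0.049 between them. Of 410 single gene and list values, 197 stayed within their counting interval. No paired analysis was possible because no result comes from a test: time points share no replicates, and the cells were chosen by the counts compared. Depth limits genes with few UMIs and the groups of 12, 21, 25 and 3 cells most.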
